A study of Mus musculus with 6 samples.

Results

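The lysyl oxidases are the enzymes that start the covalent cross-linking of collagen and elastin, and the mouse has 5 of them, Lox, Loxl1, Loxl2, Loxl3 and Loxl4. They were taken by gene symbol from the gene table of 6 B16F10 melanoma grafts, in which they were 5 of 45777 listed genes, and all 5 passed the filter on low counts that left 17210 genes to test. B16F10 is a mouse melanoma cell line, and 3 of the grafts grew in a hind footpad and 3 in flank skin, with 1 RNA library per tumor. Every sample is labelled as a graft in a Foxn1-/- mouse, a strain that lacks a thymus and mature T cells, aged 8 weeks, whereas the methods of the study describe B16F10 grafts in female C57BL/6J mice and the series title calls the grafts syngeneic, so the host strain cannot be settled from these sources. The methods describe tumor cells isolated from the implantation sites and name no way of removing host cells. The comparison addresses how the RNA of tumors, with any host cells in them, differs between footpad and flank skin. The footpad bears weight, but the paper says that the 2 places differ in other ways too. The samples hold no group with a changed load, so load cannot be told apart from other differences between the sites.

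Lysyl oxidases are secreted enzymes that hold copper and a quinone cofactor made from one of their own lysines. They oxidize the side chains of lysine and hydroxylysine in collagens and elastin to aldehydes, which then react with neighboring chains and join them. Lox and Loxl1 are made as pro-enzymes, and Lox is cut to its active form by the procollagen proteinase Bmp1. Loxl2, Loxl3 and Loxl4 carry scavenger receptor domains in front of the catalytic domain instead of the pro-region. In skin and in tumor stroma the family is known for stiffening the fibrous matrix that fibroblasts lay down, and Loxl2 is also known for cross-linking type IV collagen and for a link to epithelial-mesenchymal transition.

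The members share their catalytic domain, and the coding bases of its copper-binding stretch are shown because they show how alike the members are and which of them has a near-identical copy in the genome. Lox itself is not shown and not in the comparison. Each run of 33 bases came from the GENCODE M21 transcripts on GRCm38, and capitals mark its 4 histidine codons.
Loxl1: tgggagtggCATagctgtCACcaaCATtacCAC
Loxl2: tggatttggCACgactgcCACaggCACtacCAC
Loxl3: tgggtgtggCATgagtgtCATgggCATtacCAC
Loxl4: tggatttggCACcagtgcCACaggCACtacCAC
Gm21451: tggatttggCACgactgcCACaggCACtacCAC
In each of them the run was split by an intron after base 23. It lay in exons 3 and 4 of Loxl1 (chr9:58293720-58294381, minus strand), exons 10 and 11 of Loxl2 (chr14:69682316-69689037, plus strand), exons 10 and 11 of Loxl3 (chr6:83049995-83050125, plus strand) and exons 11 and 12 of Loxl4 (chr19:42598807-42599899, minus strand). Loxl2 and Loxl4 were identical at 31 of the 33 bases, and Loxl1 and Loxl4, the least alike of these 4, at 21. The stretch of Gm21451, a gene on the same strand before Loxl2 (chr14:69464041-69470762), was identical to that of Loxl2 at 33 of 33 bases.

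The identity of Gm21451 and Loxl2 extended beyond this stretch. Of the windows of 100 bases in the Loxl2 transcript, which is 5316 bases long, 43.5% also occurred in a transcript of another gene, and the longest run shared with Gm21451 was 2348 bases. The transcripts of Lox, Loxl1, Loxl3 and Loxl4 had 0% of such windows. Gm21451 starts at 69390417 and ends at 69477453 on chromosome 14, 131239 bases before Loxl2, and is a protein-coding gene in RefSeq and an unprocessed pseudogene in GENCODE. It had between 37.1 and 43.2 reads for every 100 reads of Loxl2 in the 6 tumors, so the values of Loxl2 are uncertain by the reads that the counting placed on the copy. Adding those reads to Loxl2, an alternative chosen after the data were seen, moved its log2 fold change from 0.59 to 0.61.

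The reads counted on genes ranged from 46529649 to 66364366 per tumor, and replicates of the same site differed by far more than counting error, the chi-square per gene lying between 58.6 and 511. For tumors of different sites it lay between 137 and 652, so the ranges within and between sites overlapped. Melanocyte markers such as Tyrp1 and Dct were abundant in all 6 tumors and summed to between 9802 and 24942 CPM over 7 genes, where CPM stands for reads relative to the library size after TMM scaling. RNA of other cells was present too. Markers of fibroblasts, 10 genes, summed to between 185 and 248 CPM in the footpad and to between 22.6 and 56.4 CPM in the flank skin, with flank tumor 2 the highest of its site. Dpt and Pi16, markers of connective-tissue fibroblasts, had 0 CPM in flank tumors 1 and 3, while Pdgfra, Pdgfrb and Dcn were detected in all 6. Footpad tumor 2 stood apart from the others by its markers of keratinocytes (433 CPM summed) and of skeletal muscle (468 CPM summed). In bulk tumor RNA, fewer cells of a type and less RNA per cell cannot be told apart.

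Lox and Loxl1 had the largest fold changes of the family. By edgeR's quasi-likelihood test, in which a call needed an adjusted p below 0.05 and at least a 2-fold change, 1 of the 5 members, Loxl1, was called higher in footpad tumors, against 2.89% of all genes tested, and 0 were called lower, against 0.872%. At an unadjusted p below 0.05 and the same fold, 2 members were higher and 0 lower, against 9.16% and 2.82% of all genes, and DESeq2 called 2 higher and 0 lower, against 6.71% and 2.05%. In 3 members, Lox, Loxl1 and Loxl3, every footpad tumor lay above every flank tumor, as it did in 17.5% of all genes tested. The median log2 fold change over all genes was -0.004.

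Lox (gene 16948) encodes the founding member, which cross-links fibrillar collagen and elastin, and lies on chromosome 18 of GRCm38 from 52516060 to 52529867. It was at 121, 97.2 and 125 CPM in footpad tumors 1, 2 and 3, and at 0.811, 13.4 and 0.735 CPM in flank tumors 1, 2 and 3. The footpad tumors lay close together and the sites did not overlap, but flank tumor 2 was 16.5-fold above the next flank tumor. The counts behind these values were 5394, 6663 and 6134 reads in the footpad and 47, 782 and 46 reads in the flank, so that even the lowest tumors were above the limit of detection of 3 reads. The log2 fold change was 4.53 with a standard error of 1.10 and a 95% interval from 1.96 to 7.09 (edgeR adjusted p = 0.0592), just outside the threshold. The lowest footpad tumor was 7.26-fold above the highest flank tumor.

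Whether Lox passed turned on flank tumor 2, on the tool and on the filter. Without flank tumor 2 its log2 fold change was 7.20, with a standard error of 0.25 (edgeR adjusted p = 6.32e-04), and without any of the other tumors it lay between 4.01 and 4.63 with an adjusted p between 0.0683 and 0.159. DESeq2 gave the same fold change and an adjusted p of 0.00257, edgeR with a filter of 10 counts in every tumor gave 0.0433, and limma gave 0.00966 on log2(FPKM + 1) and 0.0134 on log2(FPKM + 0.1). Over 13 alternatives the adjusted p ranged from 6.32e-04 to 0.159 and passed in 5, and the log2 fold change was above 0 in all 13.

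Loxl1 (gene 16949), an enzyme known for the renewal of elastic fibers, lies on chromosome 9 from 58287723 to 58313212. It was at 22.6, 20.3 and 26.4 CPM in footpad tumors 1, 2 and 3, and at 1.43, 3.35 and 0.543 CPM in flank tumors 1, 2 and 3. As for Lox, flank tumor 2 was the highest of its site, and the lowest footpad tumor was 6.06-fold above it. The log2 fold change was 3.70, with a standard error of 0.59 and a 95% interval from 2.32 to 5.08, which is 13.02-fold (edgeR adjusted p = 0.0234). The call was lost in 4 of the 6 fits without a tumor, where the adjusted p from edgeR was 0.0845 without footpad tumor 1, 0.101 without footpad tumor 3, 0.0626 without flank tumor 1 and 0.0533 without flank tumor 3. Without flank tumor 2 the log2 fold change was 4.55 (edgeR adjusted p = 0.0121).

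**Figure D1:**
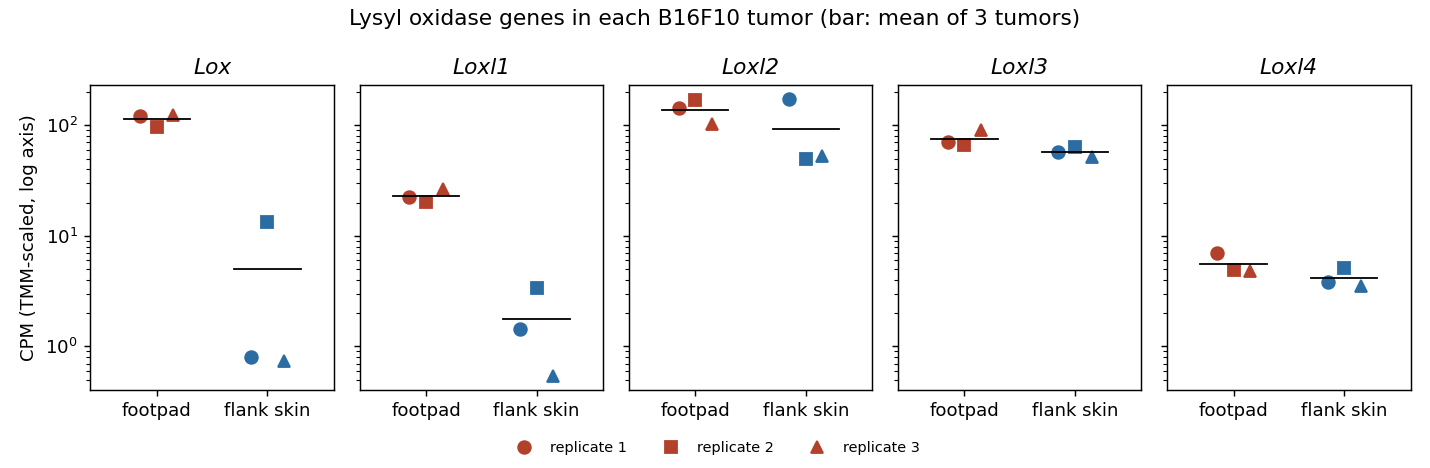
Level of each lysyl oxidase gene in each tumor, as CPM scaled by TMM on a log axis, with footpad tumors in red, flank skin tumors in blue, a marker shape for each replicate number and a bar at the mean of the 3 tumors. Lox and Loxl1 do not overlap between the sites and have flank tumor 2 (square) as the highest of the flank, at 13.4 and 3.35 CPM, whereas Loxl2 is highest of all in flank tumor 1, at 174 CPM.

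The members with scavenger receptor domains had smaller fold changes. Loxl2 (gene 94352), which acts on type IV collagen, lies on chromosome 14 from 69608692 to 69695834 and was at 144.5, 170 and 102 CPM in footpad tumors 1, 2 and 3 and at 174, 49.6 and 53.1 CPM in flank tumors 1, 2 and 3. The sites overlapped, since flank tumor 1 had the highest level of all 6 tumors and the other flank tumors the lowest. The log2 fold change was 0.59, with a standard error of 0.48 and a 95% interval from -0.54 to 1.72 (edgeR adjusted p = 0.479). Without flank tumor 1 it was 1.43, with a standard error of 0.23, and passed (edgeR adjusted p = 0.0421). Flank tumor 1 also had the highest summed level of 14 hypoxia response genes, 12027 CPM against 5663 to 8876 CPM in the other tumors, and the highest of the melanocyte markers, 24942 CPM; the part of either in its Loxl2 level was not tested.

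Loxl3 (gene 16950), an enzyme needed for palate and spine development in the mouse, lies on chromosome 6 from 83034205 to 83052566. It was at 70.0, 66.9 and 90.1 CPM in footpad tumors 1, 2 and 3 and at 57.2, 63.3 and 51.4 CPM in flank tumors 1, 2 and 3. All footpad tumors were above all flank tumors, by a margin of 1.06-fold between the nearest of them. The log2 fold change was 0.40, with a standard error of 0.16 and a 95% interval from 0.03 to 0.77 (edgeR adjusted p = 0.171, and between 0.122 and 0.449 over 13 alternatives). Loxl3 overlaps the end of Htra2, a mitochondrial protease gene on the opposite strand, by 1301 bases, and Htra2 had between 2172 and 4043 reads. The libraries kept the strand, but whether the counting used it is not stated, so reads of the 2 genes may be mixed there.

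Loxl4 (gene 67573), on chromosome 19 from 42592279 to 42612806, was the least abundant member in the footpad. It was at 7.07, 4.87 and 4.78 CPM in footpad tumors 1, 2 and 3 and at 3.86, 5.13 and 3.52 CPM in flank tumors 1, 2 and 3. The sites overlapped through flank tumor 2. The log2 fold change was 0.42, with a standard error of 0.28 and a 95% interval from -0.23 to 1.06 (edgeR adjusted p = 0.385). A fold change of 2 lies inside the intervals of Loxl2 and Loxl4 and outside that of Loxl3.

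**Figure D2:**
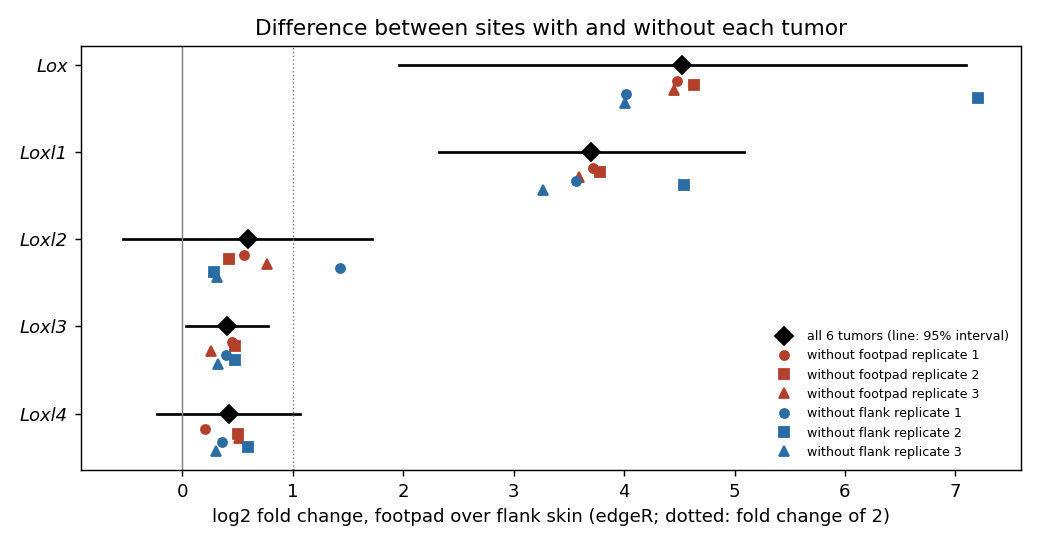
Log2 fold change of each lysyl oxidase gene, footpad over flank skin, from edgeR with all 6 tumors (diamond, with its 95% interval) and with 1 tumor left out (small markers, colored by the site and shaped by the number of the tumor left out). Leaving out flank tumor 2 moved Lox from 4.53 to 7.20, and leaving out flank tumor 1 moved Loxl2 from 0.59 to 1.43, while Loxl3 and Loxl4 stayed between 0.21 and 0.59.

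The spread within a site differed between members as well. In the footpad the highest tumor was between 1.29-fold (Lox) and 1.66-fold (Loxl2) above the lowest for every member. In the flank skin this ratio was 18.2 for Lox, 6.17 for Loxl1, 3.51 for Loxl2, 1.46 for Loxl4 and 1.23 for Loxl3. The wide spread of Lox, Loxl1 and Loxl2 was thus seen in the flank and not in the footpad, but with 3 tumors per site the difference in spread was not tested.

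Levels of different genes were compared per transcript length, with the FPKM values that the authors deposited. In the flank skin the order by mean FPKM was Loxl2 (14.9 ± 10.3, SD, n = 3), Loxl3 (12.6 ± 2.15), Lox (0.971 ± 1.45), Loxl4 (0.689 ± 0.194) and Loxl1 (0.488 ± 0.433). The first 2 were well above the last 3, and neighbors within each of these sets did not differ beyond their spread. In the footpad the order was Loxl2 (23.3 ± 6.30), Lox (20.8 ± 2.41), Loxl3 (16.6 ± 3.18), Loxl1 (6.16 ± 0.915) and Loxl4 (0.899 ± 0.141). Lox was above Loxl3 in every footpad tumor and below Loxl2 in 2 of them, and Loxl1 and Loxl4 lay apart below these 3. The values of Loxl2 leave out the reads on Gm21451.

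The 5 members summed to 63.5, 70.7 and 69.1 FPKM in footpad tumors 1, 2 and 3 and to 39.4, 28.7 and 21.0 FPKM in flank tumors 1, 2 and 3. The means were 67.7 ± 3.77 and 29.7 ± 9.23 FPKM (SD, n = 3), without overlap (exact permutation p = 0.1, two-sided; 3 tumors against 3 allow no smaller p). Of this sum, Lox made up 32.3%, 26.4% and 33.9% in footpad tumors 1, 2 and 3 and 0.339%, 9.23% and 0.630% in flank tumors 1, 2 and 3. Lox was a minor part of the family in every flank tumor. Loxl1 made up 9.09 ± 1.21% in the footpad and 1.65 ± 1.51% in the flank (SD, n = 3). The share of Loxl3 was 45.1 ± 13.7% in the flank and 24.4 ± 4.12% in the footpad, and the sites did not overlap for Lox, Loxl1 and Loxl3 (exact permutation p = 0.1 each, adjusted p = 0.167 over the 5 members). The share of Loxl2 was 34.3 ± 8.59% in the footpad and 47.4 ± 18.7% in the flank (exact permutation p = 0.4), and that of Loxl4 was 1.34 ± 0.288% and 2.46 ± 0.887% (exact permutation p = 0.2). With the FPKM of Gm21451 added to Loxl2, the share of Loxl2 in the footpad was 49.0% and that of Lox 23.9%, against 60.7% and 2.71% in the flank. The sites overlapped for Loxl3 in that alternative and also with counts in place of FPKM (exact permutation p = 0.2 in each).

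**Figure D3:**
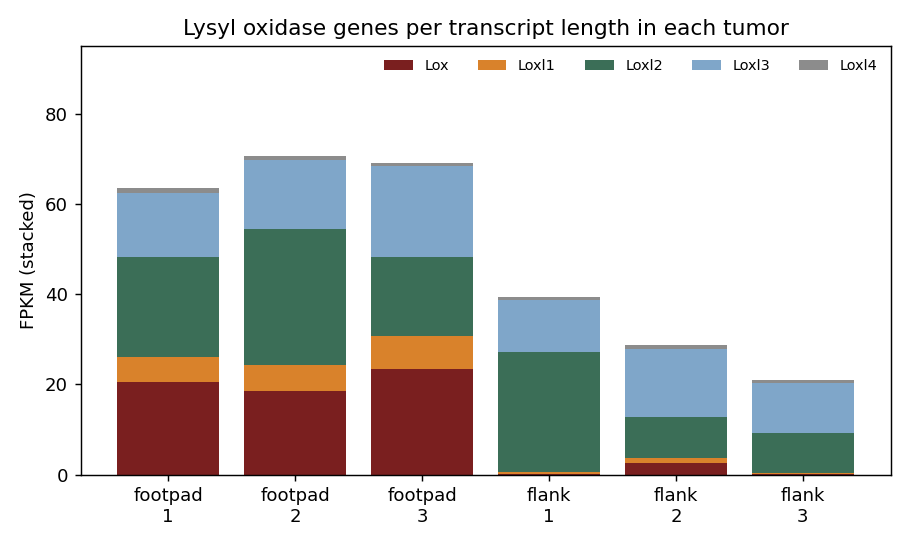
FPKM of the 5 lysyl oxidase genes stacked for each tumor. The stacks reach 63.5 to 70.7 FPKM in the footpad and 21.0 to 39.4 FPKM in the flank skin, and the part of Lox (dark red, at the base) is visible in every footpad tumor and, among the flank tumors, in flank tumor 2.

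The difference between sites was compared between members, over all 10 pairs, as the log2 CPM of one member minus that of the other in each tumor. Each tumor counted equally in the means of these log2 values, low flank tumors included. The differences are therefore not those between the edgeR log2 fold changes, which were 4.53 for Lox and 3.70 for Loxl1. Lox differed between the sites by 1.77 more than Loxl1, 4.99 more than Loxl2, 5.42 more than Loxl3 and 5.40 more than Loxl4. Loxl1 differed by 3.22 more than Loxl2, 3.65 more than Loxl3 and 3.63 more than Loxl4. In each of these 7 pairs the sites did not overlap (exact permutation p = 0.1, the smallest possible, adjusted p = 0.143 over the 10 pairs). Against Loxl1 the ratio of Lox was nearly the same in the footpad tumors (log2 ratios of 2.42, 2.26 and 2.24) and ranged in the flank from -0.81 in tumor 1 to 1.99 in tumor 2. The 3 pairs among Loxl2, Loxl3 and Loxl4 had differences of 0.42, 0.41 and -0.02, with exact permutation p-values of 0.7, 0.5 and 1.0. The SD of the log2 ratios within a site reached 1.14 in these 3 pairs, so a difference of 2-fold between them could have been missed.

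Most of the genes for known substrates of the enzymes were higher in the footpad. Of 10 genes for fibrillar collagens and elastin, 6 were called higher and 1 lower, with a median log2 fold change of 3.0. Col1a1, the main chain of type I collagen, had a log2 fold change of 4.10 (edgeR adjusted p = 0.0206), Col5a1 one of 2.87 (0.0141) and Col5a3 one of 2.77 (0.00677). Col2a1, the collagen of cartilage, was called lower, at -2.71 (0.00677), and Col11a1 was at 0.41 (0.590). Eln, the gene for elastin, was at 5.37, 2.70 and 8.47 CPM in footpad tumors 1, 2 and 3 and at 0.552, 1.23 and 0.0959 CPM in flank tumors 1, 2 and 3, without overlap but short of the threshold (log2 fold change 3.13, edgeR adjusted p = 0.0713). The counts of calls for this list ranged from 0 to 6 higher in the fits without a tumor, with 0 called without footpad tumor 3, where 7 members were higher and 1 lower at an unadjusted p below 0.05 and at least a 2-fold change.

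Relative to the mean log2 CPM of the 9 fibrillar collagen genes, Lox was at 0.31, 0.42 and 0.25 in footpad tumors 1, 2 and 3 and at -4.22, -1.39 and -4.48 in flank tumors 1, 2 and 3, a difference of 3.69. Loxl1 differed by 1.92, Loxl2 by -1.30, Loxl3 by -1.72 and Loxl4 by -1.71 on the same scale. The sites did not overlap for Lox, Loxl1, Loxl3 and Loxl4 (exact permutation p = 0.1, adjusted p = 0.125 over the 5 members) and overlapped for Loxl2 (exact permutation p = 0.3). This mean holds Col2a1, which was lower in the footpad, and weak collagens beside the abundant ones. Set against Col1a1 alone, Lox was at 17.7, 17.9 and 19.3 CPM per 100 CPM of Col1a1 in the footpad tumors and at 5.40, 17.998 and 3.70 in flank tumors 1, 2 and 3. By that measure flank tumor 2 was level with the footpad tumors, and the other flank tumors were below them. Loxl1 was at 3.29, 3.74 and 4.08 CPM per 100 CPM of Col1a1 in the footpad and at 9.54, 4.51 and 2.74 in the flank, and the sites overlapped.

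Fibroblast markers moved with Lox and Loxl1. Of the 10 markers, 7 were called higher and 0 lower in the footpad, where 10 were higher and 0 lower at an unadjusted p below 0.05 and DESeq2 called 8 higher and 0 lower. Their median log2 fold change was 3.22. The number called by edgeR was 0 without footpad tumor 1, footpad tumor 3 or flank tumor 3, 1 without flank tumor 1 and 10 without flank tumor 2, while 9 or 10 were higher in each of these fits by the unadjusted p and fold. Relative to the mean log2 CPM of these markers, Lox was at 3.54, 3.15 and 3.05 in footpad tumors 1, 2 and 3 and at 0.98, 2.30 and 0.61 in flank tumors 1, 2 and 3, so Lox was higher in the footpad by 1.95 more than the markers (exact permutation p = 0.1, the smallest possible). Loxl1 differed from the markers by 0.18, with an SD of 0.160 in the footpad and 0.890 in the flank (exact permutation p = 0.9), and its sign changed without flank tumor 2 (-0.05) or flank tumor 3 (-0.11). Loxl2, Loxl3 and Loxl4 were lower relative to the markers in the footpad, by -3.04, -3.47 and -3.45 (exact permutation p = 0.1 each). Dpt and Pi16 had 0 CPM in flank tumors 1 and 3, so the prior count of the log2 values sets part of the marker mean there. On log2(FPKM + 0.1) the differences were 2.20 for Lox, 0.57 for Loxl1, -2.29 for Loxl2, -2.71 for Loxl3 and -2.74 for Loxl4. Lists of markers of other host cells also had medians above 0. The median log2 fold change was 0.89 for 6 endothelial markers (1 called higher), 0.96 for 5 tested markers of smooth muscle and pericytes (2 called higher) and 0.83 for 6 macrophage markers (1 called higher). The 6 neutrophil markers had a median of 3.39, with 0 called by edgeR, 6 higher by the unadjusted p and fold and 1 called by DESeq2, and summed to 341, 6.61 and 167 CPM in footpad tumors 1, 2 and 3 and to 19.1, 28.8 and 4.22 CPM in flank tumors 1, 2 and 3. The part of these cells in the levels of Lox and Loxl1 was not tested. Without footpad tumor 2, the tumor with the highest keratinocyte and muscle markers, the log2 fold changes of Lox and Loxl1 were 4.63 and 3.79. This fit takes away all cells of 1 tumor together, so it cannot show the part of any cell type.

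**Figure D4:**
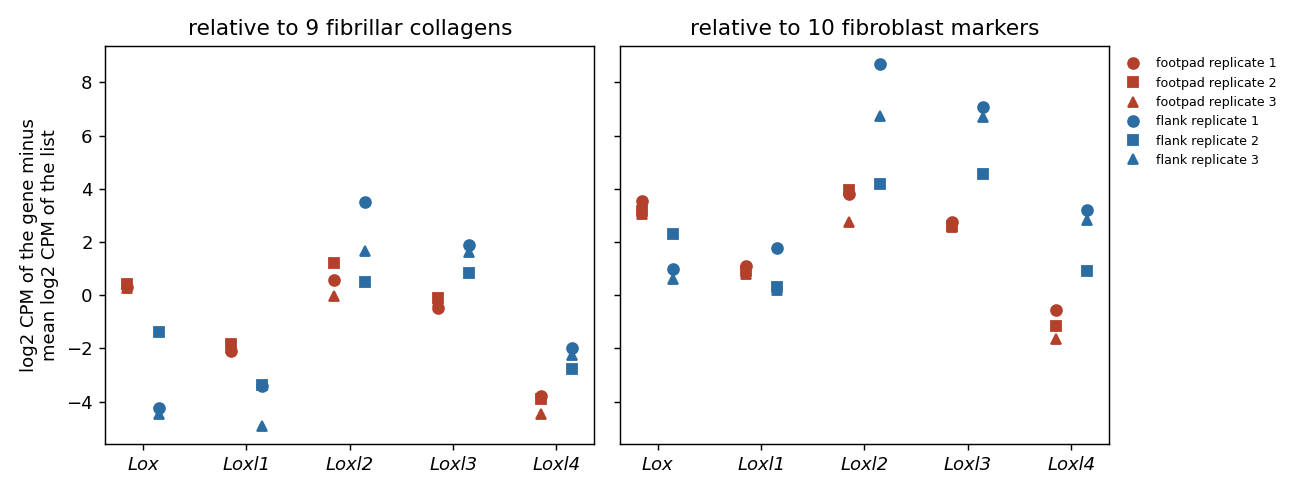
Log2 CPM of each lysyl oxidase gene minus the mean log2 CPM of 9 fibrillar collagen genes (left) or of 10 fibroblast markers (right) in each tumor, with footpad tumors in red, flank skin tumors in blue and a marker shape for each replicate number. Lox lies higher in the footpad in both panels, by 3.69 and 1.95, and Loxl3 and Loxl4 lie lower in the footpad in both. Loxl1 lies higher in the footpad by 1.92 on the left, while on the right its sites overlap, with a difference of 0.18 (exact permutation p = 0.9).

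Of 13 genes that activate the pro-enzymes or place them on the matrix, 6 were called higher and 0 lower, with a median log2 fold change of 2.24, and at an unadjusted p below 0.05 and at least a 2-fold change 9 were higher and 1 lower. Bmp1, which cuts the Lox pro-enzyme, rose from 28.8 ± 3.92 CPM in the flank to 64.2 ± 7.60 CPM in the footpad (SD, n = 3; log2 fold change 1.16, edgeR adjusted p = 0.0154). Fn1, the gene for fibronectin, on which Lox is held and cut, had a log2 fold change of 2.24 (0.0105), Fbn1, the microfibril protein fibrillin, one of 3.61 (0.0253), and Postn, a matricellular protein that supports Bmp1 on the matrix, one of 4.09 (0.0271). Thbs1, another matricellular gene, was at 3.26 (0.0607). Fbln5, a fibulin that binds Loxl1 to elastin, was at 79.2 ± 35.5 CPM in the footpad and 210 ± 50.6 CPM in the flank, lower in every footpad tumor and just short of the threshold (log2 fold change -1.41, edgeR adjusted p = 0.0518). Without footpad tumor 3 or flank tumor 3, 0 of the 13 were called by edgeR, while 8 were higher at an unadjusted p below 0.05 and at least a 2-fold change in each of these fits, and DESeq2 with all 6 tumors called 8 higher and 1 lower.

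No gene that prepares lysines for cross-linking or supplies copper was called by edgeR with all 6 tumors. Of 8 genes for the hydroxylation and glycosylation of collagen lysines, 0 were called in either direction by edgeR, with 1 higher and 1 lower at an unadjusted p below 0.05 and 1 called higher by DESeq2, and the median log2 fold change was -0.03. Plod2, which hydroxylates the lysines at collagen ends, was at 130, 129 and 156 CPM in footpad tumors 1, 2 and 3 and at 308, 249 and 261 CPM in flank tumors 1, 2 and 3. It was lower in every footpad tumor, with an adjusted p of 0.0213 from edgeR, but its log2 fold change of -0.98 was just short of the 2-fold threshold. Among the fits without a tumor it was called lower in 1, that without flank tumor 2. Ppib, a proline isomerase that works with these enzymes, was at -0.15 (0.615). Of 9 copper genes, 0 were called by edgeR or by DESeq2, with 0 higher and 1 lower at an unadjusted p below 0.05, and the median was -0.11. Atp7a, the pump that loads copper into secreted enzymes, was at 190 ± 34.7 CPM in the footpad and 213 ± 21.6 CPM in the flank, and Mt1, a metallothionein, was at -0.64 (0.217).

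Of 5 other cross-linking enzymes, 1 was called higher and 0 lower, while 3 were called higher by DESeq2 and 3 were higher by the unadjusted p and fold. Without footpad tumor 3 edgeR called 0, and 4 were higher by the unadjusted p and fold. The gene called with all tumors was Pxdn, peroxidasin, which cross-links type IV collagen, at 55.3 ± 8.68 CPM in the footpad and 12.7 ± 2.54 CPM in the flank (SD, n = 3; log2 fold change 2.12, edgeR adjusted p = 0.00677). The transglutaminase gene Tgm2 was at 2.40 (0.0504), and F13a1, a factor XIII subunit, at 0.61 (0.423).

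Hypoxia, TGF-beta and epithelial-mesenchymal transition, which are known to go with lysyl oxidase expression, were read from further lists. Of 14 hypoxia response genes, 0 were called by edgeR, with 1 higher and 2 lower at an unadjusted p below 0.05 and 0 higher and 1 lower by DESeq2. Their median was -0.31, and 0.06 without flank tumor 1. The glycolysis genes Pgk1 and Ldha had log2 fold changes of -0.55 (0.213) and -0.43 (0.238). Of 9 regulators and markers of epithelial-mesenchymal transition, 2 were called higher and 0 lower, with a median of 0.99: Zeb1 at 1.58 (0.0416) and Twist2 at 2.84 (0.0429), the latter from under 1 CPM in every tumor and 0.0345, 0.0855 and 0.0799 CPM in flank tumors 1, 2 and 3. DESeq2 called 4 higher, and edgeR called 0 without footpad tumor 1, footpad tumor 3, flank tumor 1 or flank tumor 3, where 3 to 6 were higher by the unadjusted p and fold. With 10 counts in every tumor 6 of the genes were left and 1 was called. Vim was at 0.82 (0.0503) and Zeb2 at 0.07 (0.761). Of 10 TGF-beta ligands, receptors and early targets, 1 was called higher and 0 lower, with a median of 0.61, while DESeq2 called 4 higher and 0 lower. Without footpad tumor 1, footpad tumor 3 or flank tumor 3 edgeR called 0, and 2 to 4 were higher by the unadjusted p and fold. The receptor genes Tgfbr1 and Tgfbr2 were at -0.34 (0.235) and 0.63 (0.0539).

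**Figure D5:**
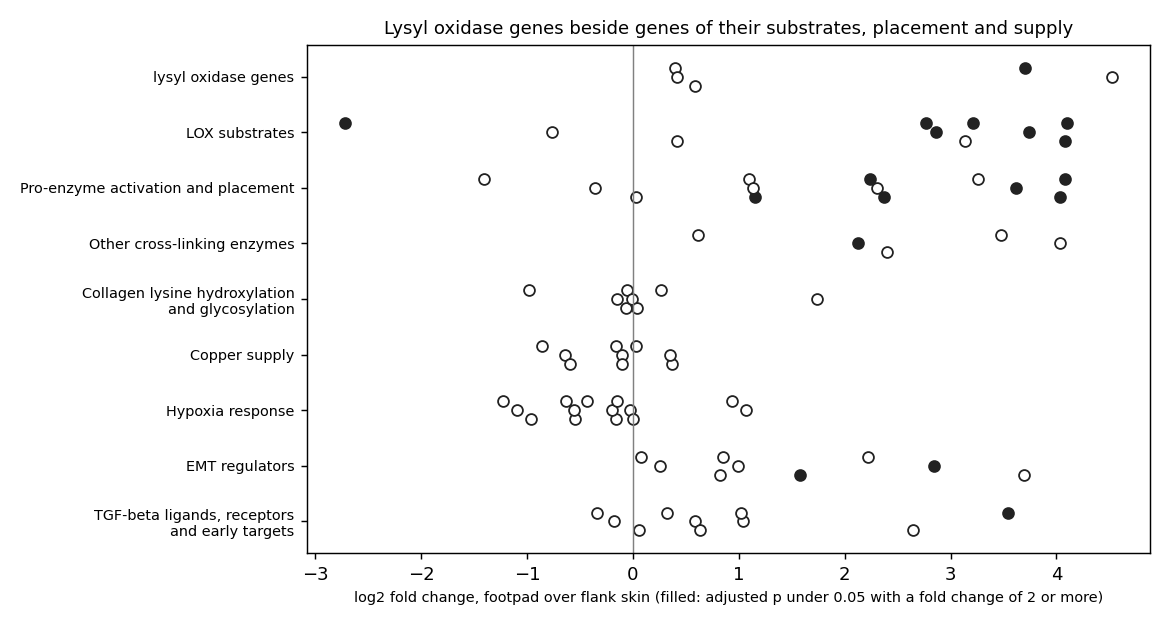
Log2 fold change, footpad over flank skin, of the lysyl oxidase genes and of each gene in 8 lists, 1 point per gene, filled where edgeR called it. Filled points lie mostly to the right in the lists of substrates (6 of 10 higher and Col2a1 lower, at -2.71) and of activation and placement (6 of 13 higher), and the lists for lysine hydroxylation, copper supply and hypoxia have 0.

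The genes nearest in profile to each member were found over the 6 tumors as those with the smallest root-mean-square difference of log2 CPM after centering, among 13602 genes with a mean of 1 CPM or more. For Lox they were Ret (0.456), a receptor tyrosine kinase gene, Arsj (0.535) and Tnc (0.588), the gene for tenascin C. Ret and Arsj had 0 CPM in flank tumors 1 and 3, so the prior count of the log2 values sets part of their distance to Lox. Tnc was at 629, 318 and 570 CPM in footpad tumors 1, 2 and 3 and at 2.62, 105 and 7.11 CPM in flank tumors 1, 2 and 3, with flank tumor 2 again the highest of its site, and none of the 3 genes was called. For Loxl1 they were Slc7a2 (0.319), a transporter of cationic amino acids that include lysine, Fbln2 (0.325), a fibulin gene, and Lsp1 (0.345). Slc7a2 was called higher, with a log2 fold change of 4.12 (edgeR adjusted p = 0.0139). Gm21451 (0.0688) was nearest to Loxl2, before Nlrp10 (0.185) and Cpa6 (0.195), and it shares sequence with Loxl2, so that reads of the 2 genes may be mixed. Loxl3 and Loxl4 varied little, and so did their nearest genes, which were 2610507I01Rik (0.0527), Pkd2 (0.0609) and Irak4 (0.0716) for Loxl3 and Dclre1c (0.0739), Zfp592 (0.0787) and Rnf113a2 (0.0889) for Loxl4. Within the family, Loxl1 ranked 39 among the genes nearest to Lox (1.20), and Lox ranked 343 among those nearest to Loxl1. Loxl2, Loxl3 and Loxl4 ranked between 2198 and 3231 among the genes nearest to Lox.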

How the data were processed

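Total RNA of 3 footpad and 3 flank skin tumors was measured, 1 stranded library each. The authors trimmed reads with Trimmomatic after FastQC 0.11.7, aligned them with HISAT2 2.1.0 to mm10 (submitters' processing notes) and deposited raw read counts per gene and FPKM values scaled for length and depth. The counting program, its handling of reads that match several genes and its use of strand are not given in the sources used here. The study gives 3 mice and describes grafting both sites of a mouse at the same time, so a footpad and a flank tumor may share a mouse, but the labels do not say which.

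Counts were scaled by TMM and fitted with edgeR 4.0.16 in R 4.3.3 (filterByExpr, glmQLFTest, Benjamini-Hochberg over 17210 genes, common coefficient of biological variation 0.338). A standard error is the log2 fold change over the square root of F. Single values were compared by exact permutation in Python 3.11.15 with scipy 1.17.1, numpy 2.4.6 and pandas 2.3.3, and log2 CPM used a prior count of 1. Numbers in parentheses after a log2 fold change are adjusted p-values from edgeR. Alternatives were DESeq2 1.42.0, upper-quartile scaling, no filter, 10 counts in every tumor, limma 3.58.1 on log2(FPKM + 1) and log2(FPKM + 0.1), a replicate block and leaving out each tumor; adding Gm21451 to Loxl2 was chosen after the data were seen. On simulated data with 200 of 17210 genes changed, edgeR recovered 151 (5.62% of its calls false), DESeq2 168 (22.2%) and limma 145 (5.23%). These counts were drawn from the means and dispersions of the edgeR fit, so the simulation is not neutral between the tools. The rates need not hold for the real counts. Members and gene lists were chosen with earlier results of these data known. The text names all members, up to 4 called genes (smallest adjusted p) and 2 uncalled genes (highest CPM) per context list, and the 3 nearest profiles per member; 1 called gene of a context list is not reported here; the fibroblast and melanocyte markers named, Htra2 and the position of Gm21451 fall outside that rule. Coordinates are RefSeq genes on GRCm38, to which mm10 corresponds, and figures were drawn with matplotlib 3.10.9.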

Additional observations from a re-analysis of the deposited data

How the results depend on the processing

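With 3 tumors per site, an exact permutation p cannot go below 0.1, and the number of calls rested on single tumors and on the tool. Over all genes, 497 were called higher and 150 lower by edgeR. The numbers were 1154 and 352 with DESeq2, 271 and 95 with limma on log2(FPKM + 1), and 0 to 639 and 0 to 197 when 1 tumor was left out, and 248 genes were lower without the fold threshold. Of the 5 members, 1 was called, against 2 with DESeq2, with a filter of 10 counts in every tumor and with limma on log2(FPKM + 1) or log2(FPKM + 0.1), and 0 to 2 when 1 tumor was left out. The log2 fold changes of all 5 members were above 0 in all 13 alternatives, and ranged from 3.70 to 7.20 for Lox, 2.30 to 4.55 for Loxl1, 0.29 to 1.43 for Loxl2, 0.25 to 0.48 for Loxl3 and 0.17 to 0.59 for Loxl4. An adjusted p below 0.05 and at least a 2-fold change were reached in 5 of 13 for Lox, 8 for Loxl1, 1 for Loxl2 and 0 for Loxl3 and Loxl4. Where a tumor was left out, a site had 2 tumors and the spread was pooled over both sites.

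With the replicate block, edgeR called 0 genes higher, 0 lower and 0 members, while 2 members passed at an unadjusted p below 0.05 and at least a 2-fold change; Lox had a log2 fold change of 5.86 (adjusted p = 0.0941) and Loxl1 one of 4.003 (0.0778). Deviations of tumors with the same number correlated at 0.05, -0.10 and -0.11, none above the 0.1 taken as a sign of pairing, and the labels do not say that a number marks a mouse. In another matching, 0.1 was passed by footpad tumor 2 with flank tumor 3 (0.264), 1 with 2 (0.126) and 3 with 1 (0.115). The remaining combinations lay between -0.20 and -0.02. The replicate block joined tumors of the same number and may have matched the wrong ones. Whether tumors of the 2 sites came from the same mice is not settled by these correlations.

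Among 70 alternatives for the pairs of members, 5 changed sign, each in a pair with a small difference. Loxl2 over Loxl4 (0.41) ranged from -0.0709 without flank tumor 2 to 1.04 without flank tumor 1. Loxl3 over Loxl4 (-0.02) ranged from -0.249 without footpad tumor 3 to 0.215 without footpad tumor 1, with 0.0287 without flank tumor 1 and 0.0185 without flank tumor 3, and was 0.0290 on log2(FPKM + 0.1). Among 70 for the members relative to collagens and fibroblast markers, 2 changed sign, both for Loxl1 relative to fibroblast markers (0.18), which ranged from -0.109 without flank tumor 3 to 0.690 without flank tumor 1, with -0.0493 without flank tumor 2. The cause of these changes was not tested.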
